A study of Homo sapiens with 5 samples.

Results

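RPE-1 is an immortalized, non-transformed line derived from human retinal pigment epithelium, and its baseline transcriptome is described here from the control libraries of a knock-down study. These are the 3 libraries from cells transfected with a non-targeting control siRNA (siCtrl), chosen by their labels out of the 5 libraries of the study. The other 2 libraries come from cells given siRNAs against FAM53C (siFAM53C) and were not compared. By the labels the line is wild type in genotype and of epithelial cell type. The cells were transfected with ON-TARGET Control #1 at 5 µM with Lipofectamine RNAiMAX, were collected after 48 h, and gave polyA RNA. Every library therefore comes from transfected cells, and no untransfected culture was analysed here. The levels are those of a cultured line and not of the tissue. The labels do not say whether the 3 libraries come from separate cultures, so the spread between them may be technical. The methods of the study describe duplicate samples, while the labels give 3 control libraries.

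The retinal pigment epithelium is a pigmented monolayer behind the photoreceptors. It recycles the visual chromophore, takes up shed photoreceptor outer segments, moves ions and metabolites between the retina and the choroid, and makes melanin. MITF and OTX2 are transcription factors that specify it during development, RPE65, RLBP1 and LRAT act in the visual cycle, and TYR and PMEL serve melanin synthesis and melanosomes. Cells of this tissue can lose pigment and junctions and take on mesenchymal features in culture.

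The libraries held 24099968, 19694561 and 19260124 counts on genes. Counts were scaled with TMM factors of 0.995 to 1.00 to CPM, counts set to an equal library total, which compare 1 gene between libraries. Levels of different genes are compared in TPM, which divide counts by the length of a gene's annotated exons before scaling each library to the same total. A gene was called expressed when it reached 1 CPM in each of the 3 libraries. At this depth a gene with 0 counts in a library could still have up to 0.124, 0.153 or 0.155 CPM in siCtrl replicates 1, 2 and 3, the value of 3 counts, and this limit covers counting error only. A gene was said to vary when its highest CPM was at least 1.5 times its lowest and a chi-square test of its 3 counts against counting error had an adjusted p under 0.05. Such a call compares these 3 libraries and not conditions.

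Of 64252 gene identifiers in the table, 12216 were expressed and 40142 had 0 counts in all 3 libraries. Among protein-coding genes 10933 of 19550 (55.9%) were expressed, and the 10920 of them outside the mitochondrial genome took 94.2% of the CPM. Their levels spread widely. Only 71 of these nuclear genes stood at 1000 TPM or more and together took 12.8% of the counts of such genes. A further 1534 lay between 100 and 1000 TPM with 44.3% of the counts, 6545 between 10 and 100 TPM with 39.8%, and 2770 below 10 TPM with 2.93%. Another 5262 had no count at all. The median of the expressed nuclear genes was 25.3 TPM. Within each library, 824 to 852 genes made up the larger part of all counts, past 50%, and the 100 most abundant genes held 20.6% ± 0.164 (SD, n = 3). Long noncoding RNAs added 574 expressed genes but only 0.682% of the CPM, and pseudogenes 432 with 0.643%. The 13 proteins coded by the mitochondrial genome were all expressed, led by the cytochrome c oxidase subunit MT-CO1 at 31054 ± 5048 TPM (SD, n = 3), and the whole mitochondrial genome took 3.56%, 3.89% and 4.51% of the counts.

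The most abundant nuclear transcripts were those of glycolysis, the actin cytoskeleton, metal and iron storage, translation and chaperones. GAPDH, a glycolytic enzyme, led with 9368, 9726 and 8598 TPM in the 3 libraries. MT2A, a metallothionein that binds zinc and copper, had 9180, 8144 and 8736 TPM. The cytoplasmic actins ACTB and ACTG1 had means of 8357 ± 216 and 6195 ± 173 TPM (SD, n = 3). By exon bases the libraries of GAPDH and MT2A overlapped, as did those of MT2A and ACTB. On that measure the members of these pairs do not differ beyond their spread. The actin-binding peptide TMSB10 followed ACTB at 8144 ± 1287 TPM, and profilin PFN1 reached 2382 ± 243 TPM. ACTG1 lay apart from both of its neighbours, with 5997 to 6317 TPM in single libraries against 6865 or more for TMSB10 and 4384 or less for LGALS1. LGALS1, the galactose-binding lectin galectin-1, stood at 4101 ± 471 TPM and FTL, the ferritin light chain, at 4078 ± 737 TPM. HMGA1, an architectural chromatin protein of growing cells, had 4751, 4073 and 2020 TPM and was the only gene of the first 10 to vary. Elongation factors EEF1A1 and EEF2 had 3574 ± 496 and 2915 ± 383 TPM. The chaperone genes, HSP90AB1, HSPA8 and HSP90AA1, lay between 2015 and 2855 TPM.

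Lengths bear on this order. With the longest annotated transcript in place of all exon bases, 18 of the 20 genes stayed among the first 20, while HSP90AA1 and PSAP gave way to ANXA2 and PKM. The order among them changed, with ACTB first at 10608 TPM, then GAPDH at 9458 and ACTG1 at 7416. MT2A then had 6470 TPM and TMSB10 5987, both below ACTG1. Genes with near-identical copies elsewhere in the genome, such as RPS2 and RPL41, can lose reads to those copies. RPL41, a short ribosomal protein, had 13561, 6358 and 4318 counts, while its processed pseudogene RPL41P1 had 103, 1341 and 322, so both values are uncertain.

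**Figure D1:**
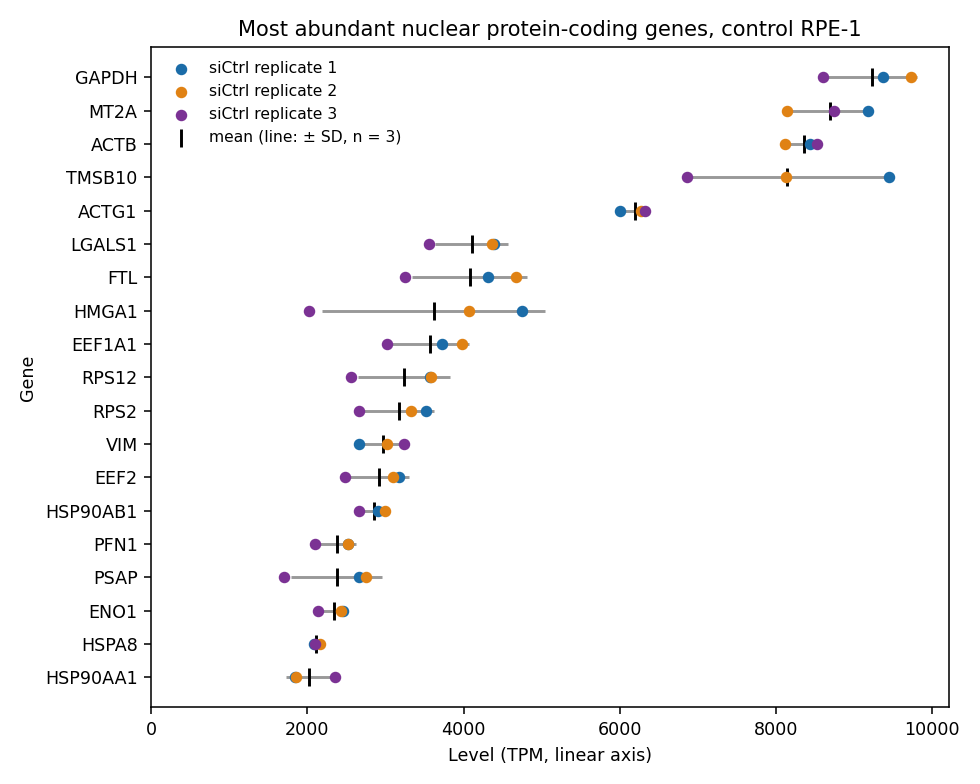
Levels of 19 of the 20 most abundant nuclear protein-coding genes in TPM on a linear axis, 1 row per gene, with a point for each of the 3 siCtrl libraries, a tick for their mean and a line for ± SD. ACTB, ACTG1 and HSPA8 lie close together in all 3 libraries, while HMGA1 lies between 2020 and 4751 TPM with replicate 3 lowest.

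Translation genes among the most abundant transcripts shared a feature at their start sites. Transcripts of ribosomal proteins and elongation factors are known to begin with a C followed by a run of pyrimidines, the 5′ terminal oligopyrimidine tract, through which their translation is controlled by mTOR. A C followed by at least 4 bases that are each C or T, beginning within 3 bases of the RefSeq start site on the coding strand, was present in 45 of the 60 expressed cytosolic ribosomal protein genes with a promoter in the table used (75.0%), against 13.1% of all 27305 promoters. It was present in 10.4% of 67 expressed mitochondrial ribosomal protein genes, which are nuclear genes of another ribosome. The windows shown run from 10 bases before to 20 bases after and including the start, 5′ to 3′ on the gene's strand of GRCh38.p14, and capitals mark the pyrimidine run from the first C that lies within 3 bases of the start. In RPL13A pyrimidines also precede the capitals.
RPS12 (chr6:132814559-132814588, plus strand): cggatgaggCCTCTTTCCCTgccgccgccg
RPLP0 (chr12:120201092-120201121, minus strand): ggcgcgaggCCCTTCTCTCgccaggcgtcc
RPL13A (chr19:49487598-49487627, plus strand): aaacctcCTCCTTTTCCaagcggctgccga
EEF1A1 (chr6:73521013-73521042, minus strand): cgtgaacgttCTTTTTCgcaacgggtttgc
EEF2 (chr19:3985444-3985473, minus strand): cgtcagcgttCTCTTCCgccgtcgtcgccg
The run was not limited to translation genes. It was present in 24 of the 81 matched genes among the 100 most abundant (29.6%), a group that includes ribosomal protein genes, and the window of HMGA1 held it. The start-site windows of the abundant cytoskeletal genes VIM and ACTG1 held no such run.
HMGA1 (chr6:34236863-34236892, plus strand): ctgggtcgCTCTTTTTaagctcccctgagc
VIM (chr10:17228231-17228260, plus strand): atcgtgatctgggaggcccacgtatggcgc
ACTG1 (chr17:81512780-81512809, minus strand): cgcggtcggtctcagtcgccgctgccagct
Upstream of the start, the letters TATAAA on the coding strand stood between 40 and 20 bases before it in 10 of the 81 matched genes among the 100 most abundant (12.3%), in 1.30% of 9061 expressed protein-coding genes and in 7.02% of 6152 that were not expressed. MT2A and the chemokine gene CXCL8 hold them. CXCL8 had 9.75 times the CPM in replicate 3 that it had in the mean of the others. IL11, at 6.88 times by the same ratio, does not hold them. Of 856 matched protein-coding genes that varied with replicate 3 above the mean of the others, 17 held them (1.99%). The windows span the 30 bases that end 11 bases before the start, with TATAAA in capitals.
MT2A (chr16:56608544-56608573, plus strand): ctctttctagcTATAAAcactgcttgccgc
CXCL8 (chr4:73740529-73740558, plus strand): gggtgatgaTATAAAaagccaccggagcac
A match is a description of these letters and does not show that a factor binds there.

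Markers of the tissue of origin were expressed only in part. MITF, OTX2 and PAX6 were expressed, while PMEL, BEST1, RLBP1, TYR and RPE65 stayed below 1 CPM in every library. Of the 10 markers given for the line, 5 were expressed (50%), near the 55.9% of all protein-coding genes. VIM (vimentin, chromosome 10, 17228241 to 17237593 of GRCh38), an intermediate filament protein of mesenchymal and cultured cells, had 2656, 3022 and 3240 TPM. KRT18, a keratin of simple epithelia, had 215 ± 18.7 TPM (SD, n = 3). MITF, the master regulator of pigment cells, had 801, 713 and 932 counts, which is 21.3 ± 4.66 TPM. OTX2, a homeodomain factor of the retinal pigment epithelium, had 403, 281 and 309 counts, or 18.5 ± 1.63 TPM. PAX6, a paired-box factor of the early eye, had 7.66 ± 1.08 TPM by its exon bases and 16.8 TPM by its longest transcript. Each of these 5 lay above the expression limit in every library, and 0 of the 5 varied, against 20.4% of all expressed genes. All 5 stood above 10 CPM, where the groups of genes by level varied in only 9.89% to 14.1% of cases. MITF came near the limit of 1.5, with its highest CPM 1.45 times its lowest. The remaining markers stood apart from them. PMEL, the melanosome matrix protein, had 13, 14 and 15 counts and BEST1, the bestrophin chloride channel, 11, 5 and 15, all below 1 CPM. RLBP1 had 1 count in 1 library, TYR had 1 count in another, and RPE65 had 0 in all 3.

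The visual cycle and melanin lists each held expressed and unexpressed genes. In the visual cycle list 5 of 11 genes were expressed (45.5%, against 55.9% of all protein-coding genes). RDH11 and RDH10, retinol dehydrogenases found in many tissues, had 58.9 ± 5.93 and 14.1 ± 1.21 TPM. DHRS3, which reduces retinal, had 34.6, 31.7 and 8.22 CPM and was lowest in replicate 3. LRAT, which esterifies retinol, stayed below 1 CPM in replicate 3 with 40, 33 and 16 counts. RGR and RPE65 had 0 counts. DHRS3 varied with replicate 3 lowest, and RDH5 varied with replicate 3 highest. Of the exon bases of RDH5, 68.2% are shared with other genes on the same strand. In the melanin list 4 of 13 were expressed (30.8%). They were MLPH at 49.3 ± 6.04 TPM, RAB38 at 34.4 ± 4.23, RAB27A at 14.4 (13.2 to 16.1 in single libraries) and GPR143 at 3.32 ± 0.617. The first 3 of these act in organelle transport. The pigment enzymes TYR, TYRP1 and DCT had 1, 2 and 0 counts in all, and OCA2 had 0.

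Among transcription factors of the eye field and the pigment epithelium, 9 of 15 were expressed (60%). This is near the 55.9% of all protein-coding genes, and 2 of the 9 varied. SIX3, a homeodomain factor of the forebrain and eye, was the most abundant with 97.8, 100 and 105 CPM and 150 ± 7.59 TPM, and it differed little between libraries. SOX9 followed at 136 ± 30.6 TPM and varied, from 165 CPM in replicate 1 to 103 in replicate 3. VAX2, TBX2 and TFEC, a relative of MITF, were expressed at 4.30 TPM or below. Of the exon bases of VAX2, 56.3% are shared with other genes on the same strand. CRX, RAX, SIX6 and TBX5 had 0 counts in all 3 libraries, and LHX2 had 8, 2 and 1.

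Genes for outer segment uptake were expressed almost as a set, with 11 of 12 at 1 CPM or more (91.7%). ANXA2, which acts early in uptake, had 982 ± 42.1 TPM. The receptor tyrosine kinase AXL had 1224, 1124 and 1302 CPM, or 953 ± 86.9 TPM, far above its relatives TYRO3 at 18.6 ± 2.08 and MERTK at 4.23 ± 2.06 TPM. MERTK is the member of this family known to drive uptake in the tissue, and it had 148, 98 and 38 counts. The ligands GAS6 and PROS1 stood at 317 ± 55.0 and 33.1 ± 6.67 TPM. Integrin ITGB5, the outer segment receptor subunit, had 561, 636 and 415 CPM. ITGB5, PROS1 and MERTK varied, each with replicate 3 lowest. CD36 alone stayed below 1 CPM, with 7, 7 and 16 counts.

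Transport and secretion genes gave 14 expressed of 19 (73.7%). Of the 14, 4 varied (28.6%, against 20.4% of all expressed genes), 3 with replicate 3 highest and 1 with it lowest. Ezrin (EZR), which links actin to the microvillar membrane, led at 844 ± 142 TPM, ahead of the chloride channel protein CLIC4 at 632 ± 66.6 and basigin (BSG) at 521 ± 37.2. Of the lactate transporters, SLC16A3 and SLC16A1 had 154 ± 22.4 and 84.1 ± 1.29 TPM while SLC16A8, the form known from this tissue, had 0 counts. Transthyretin (TTR) had 0 counts as well, and the channel gene KCNJ13 had 1 count in 1 library. SERPINF1, which codes for the secreted factor PEDF, had 55, 20 and 50 counts. The matrix protein EFEMP1 had 56.3, 63.1 and 235 CPM, highest in replicate 3. VEGFA, the vascular growth factor that this tissue secretes, had 247, 201 and 83.4 CPM, lowest in replicate 3.

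**Figure D2:**
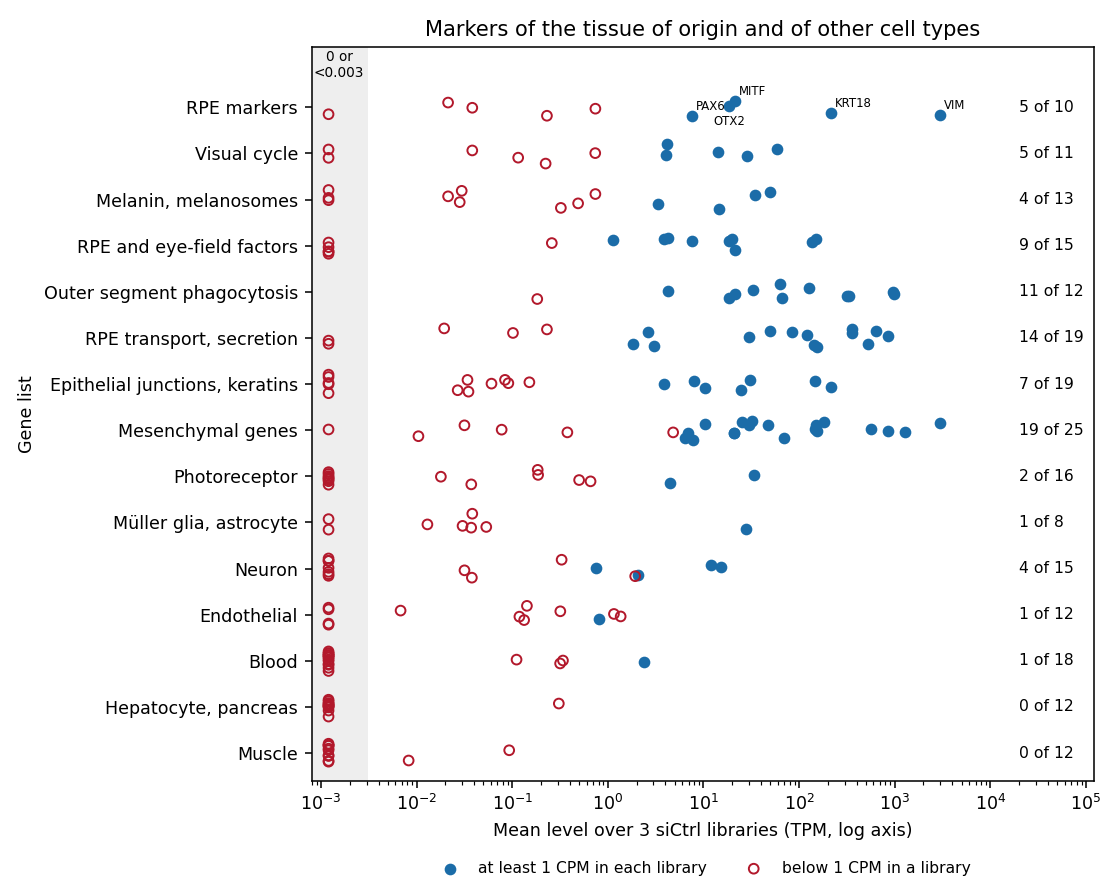
Mean level of each member of 15 marker lists over the 3 siCtrl libraries, in TPM on a log axis, with members at 0 or below 0.003 TPM in the grey strip. Filled points are genes at 1 CPM or more in each library, open points the others, and the number at the right of each row gives expressed members of the list. Points of the uptake, transport and mesenchymal lists lie mostly above 10 TPM, and those of the blood, liver and muscle lists mostly in the strip.

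The labels call the cells epithelial. Of 19 epithelial junction and keratin genes, 7 were expressed, led by the simple-epithelium keratins KRT18 and KRT8 (148 ± 12.2 TPM), with plakoglobin JUP at 31.0 ± 3.98 TPM and desmoplakin DSP at 24.9 ± 8.44. The tight junction genes CLDN1 and TJP1 were expressed as well, with 171, 141 and 271 counts (10.5 ± 4.62 TPM) and 255, 187 and 246 counts (3.89 ± 0.650 TPM). Other defining adhesion genes were at or near 0, where CDH1 (E-cadherin) had 0, 0 and 3 counts, EPCAM 4, 0 and 0, and OCLN 5, 5 and 1. The epithelial regulators GRHL2 and OVOL1 and the claudins CLDN3, CLDN7 and CLDN19 had 0 counts. CLDN19 is the claudin known from human retinal pigment epithelium. Summed over the list, the level was 430 to 460 TPM per library. Among the 7 expressed members 3 varied (42.9%, against 20.4% of all expressed genes). DSP and CLDN1 did so with replicate 3 highest, and 1 did so with it lowest.

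Mesenchymal genes were expressed in 19 of 25 cases, with a summed level of 6087 to 7336 TPM. After VIM came fibronectin FN1 with 4609, 4941 and 7031 CPM and 1293 ± 331 TPM, SPARC at 859 ± 15.4 TPM and the tropomyosin TPM2 at 564 ± 51.1 TPM. N-cadherin CDH2 had 7052, 5532 and 7467 counts and 150 ± 29.7 TPM, against the 3 counts of CDH1. Regulators of the mesenchymal state, TWIST1, TWIST2, ZEB1, SNAI2 and ZEB2, ranged from 10.3 to 47.8 TPM. The list was not complete, since the fibrillar collagen genes COL1A2 and COL3A1 had at most 7 counts in a library and CDH11 had 0. Among the expressed members 4 varied (21.1%), near the 20.4% of all expressed genes. FN1, TAGLN and TWIST1 did so with replicate 3 highest and PRRX1 with it lowest.

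Markers of other cell types were largely absent. Of 12 muscle genes, 12 liver and pancreas genes and 12 germ cell and pluripotency genes, 0 were expressed, and 10, 11 and 7 of them had 0 counts in all 3 libraries. Of 18 blood cell genes only the receptor CSF1R was expressed, with 69, 59 and 66 counts, and 14 had 0 counts. Of 12 endothelial genes only TIE1 was expressed, at 0.804 ± 0.0929 TPM, and CDH5, ERG, EMCN and FLT1 had 0 counts. Among 15 neuron markers 4 were expressed (26.7%). Of these, SYT1, a calcium sensor of vesicle release, and MAP2, a microtubule protein, had 15.3 ± 0.723 and 11.9 ± 0.659 TPM. DCX, RBFOX3, STMN2 and ELAVL4 had 0 counts. Among 16 photoreceptor genes 2 were expressed. OPN1SW, the blue cone opsin, had 172, 164 and 239 counts, in contrast to GNAT2, SAG and PRPH2 with 0. Of its exon bases 15.8% overlap exons on the opposite strand, as do 30.1% of those of ROM1, the other expressed gene. The strand setting of the counting step is not given, so these counts may include reads of other genes. The same limit holds for the line's markers PAX6, VIM and KRT18. Of their exon bases 26.3%, 24.6% and 17.1% overlap exons on the opposite strand, against 0% for MITF and OTX2. The glial enzyme GLUL, used by many cell types, was the 1 expressed gene of 8 glial markers. Summed levels were at most 53.8 TPM per library for the photoreceptor list, 33.4 for neurons, 4.95 for endothelium and 3.44 for blood.

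Transcription factor families were expressed in very unequal shares. All 4 TEAD factors and all 8 SMAD proteins were expressed, as were 15 of 17 JUN, FOS and ATF factors and 5 of 6 homeobox factors of the SIX3 family. FOSL1, an AP-1 subunit, had the highest level of the 812 listed factor genes with 1166 ± 90.5 TPM, followed by the stress factor ATF4 at 463 ± 91.3 and JUN at 287 ± 56.1 TPM. FOXM1, which drives mitotic genes, was the next at 279 ± 33.0 TPM. The orphan nuclear receptors NR2F1 and NR2F2, which pattern the eye and mesenchyme, had 243 ± 50.1 and 169 ± 13.3 TPM. At the other end, 3 of 39 HOX genes were expressed, and every HOX gene with a count lay in the HOXB cluster. HOXB9 had 179, 141 and 49 counts, HOXB4 had 115, 70 and 39, and HOXB3 had 55, 36 and 48, while 31 HOX genes had 0. Of 9 PAX genes, PAX8 (13.5 ± 0.486 TPM) and PAX6 were expressed and the other 7 had 0 counts.

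**Figure D3:**
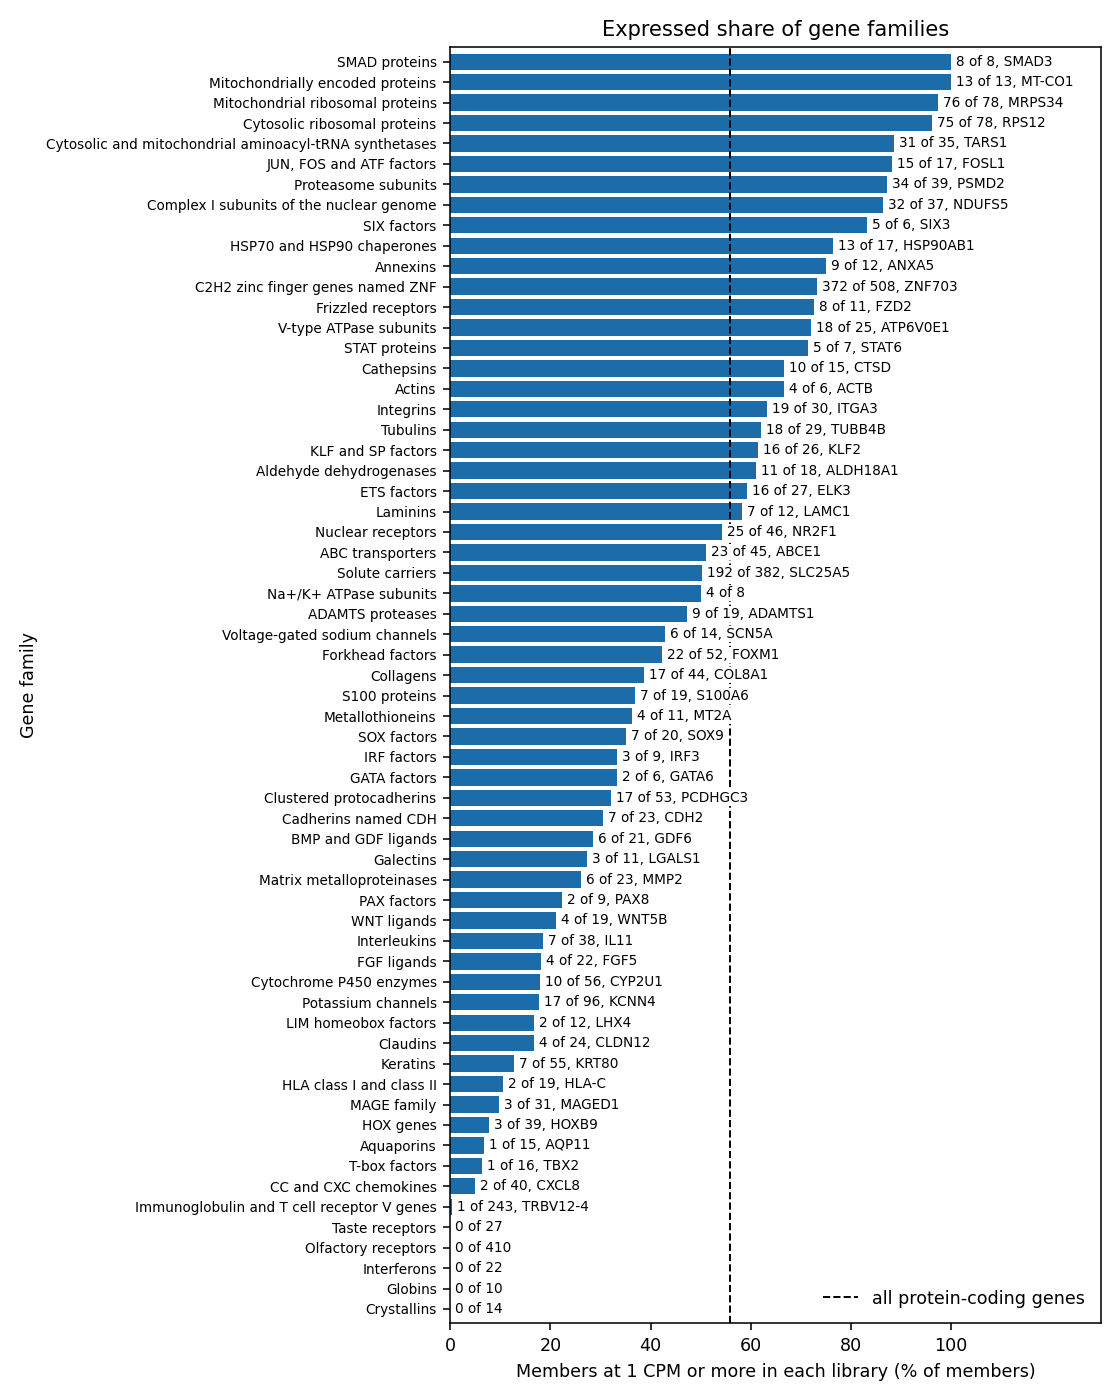
Percentage of the members of each gene family with 6 or more members that reached 1 CPM in each of the 3 siCtrl libraries, with the number expressed, the number in the table and, for all but 1 family with expressed members, the most abundant member. The dashed line marks 55.9%, the share of all protein-coding genes. Ribosomal protein families lie near 100% and the globin, crystallin, interferon, olfactory and taste receptor families at 0.

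Families of specialised function had no expressed member or a few. None of 410 olfactory receptor genes was expressed and 400 had 0 counts, and the same 0 held for 27 taste receptors, 22 interferons, 14 crystallins and 10 globins. Of 243 immunoglobulin and T cell receptor V genes 1 was expressed. Keratins were limited to 7 of 55, led by KRT80 at 239 ± 21.6 TPM, and claudins to 4 of 24, led by CLDN12 at 37.8 ± 1.70 TPM. Of 23 cadherins 7 were expressed and CDH2 was well above the next, CDH24 at 34.5 ± 9.05 TPM. Aquaporins were limited to AQP11 at 5.52 ± 0.628 TPM, with AQP1 at 6, 0 and 0 counts. Potassium channels gave 17 of 96, led by the calcium-activated channels KCNN4 (107 ± 21.8 TPM) and KCNMA1 (48.2 ± 4.34 TPM). Solute carriers gave 192 of 382, led by the mitochondrial ADP/ATP carrier SLC25A5 at 894 TPM, with the phosphate importer SLC20A1 at 540 ± 135, the amino acid transporter SLC7A5 at 449 ± 66.5 and the glucose transporter SLC2A1 at 357 ± 21.7 TPM.

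Of 50 receptor tyrosine kinases 23 were expressed (46.0%), a share below the 55.9% of all protein-coding genes, with AXL first, then EPHA2 (402 ± 32.4 TPM), the HGF receptor MET (338 ± 80.7), the collagen receptor DDR2 (104 ± 15.9) and EGFR (67.2 ± 10.5). HGF itself had 0 counts, as did KIT, RET, FLT3 and FGFR3, while FGFR1 had 34.3 ± 4.23 TPM. DDR1 had 1 count in 1 library, and it lies in the MHC region in which counting was poor (described at the end). Among 43 growth factors and cytokines 34 were expressed (79.1%). CCN1 and CCN2, matricellular proteins and targets of YAP and TEAD, had 977 ± 135 and 891 ± 98.6 TPM, TGFB1 had 284 ± 15.5 and FGF5 132 ± 6.56. Of the WNT ligands, 4 of 19 were expressed, WNT5B at 314 and WNT5A at 85.7 ± 5.96 TPM. TNF, in the same MHC region as DDR1, had 0 counts.

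Of 43 extracellular matrix genes 32 were expressed (74.4%), and their summed level was 11518 to 12914 TPM, below the 43618 to 60024 TPM of the cytosolic ribosomal proteins. The gelatinase MMP2 had 1688, 1716 and 1686 CPM and 1448 ± 16.7 TPM, followed by FN1, the membrane protease MMP14 (986 ± 270 TPM), SPARC and thrombospondin THBS1 (577 ± 179 TPM). Cross-linking enzymes LOX, LOXL2 and LOXL1 had 318 to 484 TPM. Of 44 collagens 17 were expressed, with COL8A1, a short-chain collagen, on top at 194 ± 39.7 TPM, ahead of COL12A1, COL4A2 and COL4A1. Integrins ITGA3, ITGA5 and ITGB1 had 614 to 842 TPM.

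Cell cycle genes were expressed throughout, with 23 of 23 proliferation genes at 1 CPM or more. Cyclin D1 (CCND1) had 1610, 1633 and 1322 CPM and 1283 ± 125 TPM. PCNA, the replication clamp, had 681 ± 93.4 TPM, the mitotic activator CDC20 463 ± 28.6 and Ki-67 (MKI67) 241 ± 69.2. Cyclin E genes were the lowest of the list, with CCNE2 at 15.1 ± 0.888 and CCNE1 at 12.9 ± 3.15 TPM. TOP2A and MKI67 varied with replicate 3 highest, and CCNE1 varied with replicate 1 highest. The cell cycle inhibitors CDKN2A and CDKN1A were both abundant: CDKN2A, which codes for p16 and ARF, had 192, 180 and 128 CPM and 172 ± 33.0 TPM, and CDKN1A, which codes for p21, had 346, 322 and 179 CPM and 378 ± 116 TPM. RB1 had 96.9 ± 12.9 TPM. CDKN1C had 0, 0 and 2 counts.

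FAM53C, the gene silenced in the other libraries of the study (ENSG00000120709, chromosome 5, 138331935 to 138349729 of GRCh38), had 59.4, 58.2 and 56.8 CPM in the controls, with a coefficient of variation of 2.24%. Its level of 33.1 ± 0.574 TPM ranked 4559 among nuclear protein-coding genes. Its relatives FAM53B and FAM53A had 16.2 ± 2.24 and 2.36 ± 1.21 TPM. The kinase DYRK1A, which phosphorylates the DREAM subunit LIN52 and cyclin D, had 67.4, 72.0 and 83.5 CPM and 11.2 ± 1.42 TPM. Its partner DCAF7 had 59.5 ± 5.35 TPM. The DREAM subunits LIN54, LIN9 and LIN52 ranged from 16.0 to 20.2 TPM, and LIN37 stayed below 1 CPM in replicates 1 and 2 with 17, 9 and 22 counts. In this list of 17 genes 16 were expressed and 2 varied, DYRK1B and FAM53A (12.5%, against 20.4% of all expressed genes).

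TERT, the telomerase subunit used to immortalize the line, had 162, 125 and 120 counts, or 4.37 ± 0.155 TPM. The counts do not separate a transgene from the genomic copy. TERC, the telomerase RNA, which is not polyadenylated in its mature form, had 3, 0 and 0 counts. Replication-dependent histone genes, core and linker, whose messages lack polyA tails, were also low. The part that the use of polyA RNA has in these low counts was not tested. Of the replication-dependent histone genes 5 of 23 were expressed, against 9 of 11 replication-independent ones. The linker histone H1-2 was the highest of the former at 50.1 ± 17.4 TPM. H2AZ1 and H2AX of the latter had 854 ± 148 and 832 ± 42.7 TPM.

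Interferon and RNA-sensing genes gave 16 of 27, with the adaptor MAVS highest at 76.3 ± 6.82 TPM and IFIT1 at 6.26 ± 0.275. MX1 had 7, 8 and 0 counts, and IFNB1, IFNL1 and RSAD2 had 0.

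Of 19 glycolytic genes 18 were expressed, 7 of them above 1000 TPM. None of the 18 varied, and 17 of them were below the mean of replicates 1 and 2 in replicate 3, with a median log2 ratio of -0.21 against -0.01 over all expressed genes. The summed level was 22150, 22507 and 19464 TPM. ENO1 had 2338 ± 181, PKM 1790 ± 114 and TPI1 1680 ± 211 TPM. Both lactate dehydrogenases were present, LDHB at 1430 ± 220 and LDHA at 921 ± 43.0 TPM by exon bases, an order that the longest transcripts keep at 2039 and 1823 TPM. As references for expression assays, ACTB, GUSB and SDHA had the smallest spread of 19 expressed genes, with coefficients of variation of 1.29%, 1.60% and 3.34%. GAPDH had 8.01%. B2M, with 180, 160 and 100 CPM, and RPLP0, with 2034, 2390 and 1551 CPM, varied.

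Noncoding RNAs were led by NORAD, small nucleolar RNA host genes and PRR11-AS1. NORAD, which binds Pumilio proteins, had 334, 320 and 393 CPM and 260 ± 33.9 TPM, and GAS5 had 122 ± 6.88 TPM. PRR11-AS1 had 376 ± 88.0 TPM, but all of its annotated exon bases are shared with another gene. The nuclear RNAs MALAT1, NEAT1 and MEG3 varied. MALAT1 had 115, 114 and 463 CPM and the imprinted MEG3 had 91.3, 74.2 and 333. NEAT1, the scaffold of paraspeckles, had 4871, 2619 and 10145 counts. Replicate 3 stood above the others in each, and 83.7% of the exon bases of MALAT1 overlap genes annotated on the opposite strand. H19, HOTAIR and MIR22HG had 0 counts.

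Spread among the 3 controls was largest between replicate 3 and the others. Of the 12216 expressed genes 2490 varied (20.4%), 1274 of them with replicate 3 highest (10.4%) and 967 with replicate 3 lowest (7.92%). Replicates 1 and 2 differed by at least 1.5 times and beyond counting error in 528 genes (4.32%), replicates 1 and 3 in 1743 (14.3%) and replicates 2 and 3 in 1857 (15.2%). The biological coefficient of variation from edgeR was 19.1% over the 3 libraries and 11.6% without replicate 3. Across expressed genes, Pearson's r of log2 CPM was 0.990 for replicates 1 and 2, 0.976 for 1 and 3, and 0.975 for 2 and 3, given as a description over genes. The share of varied genes differed by level, at 42.7% of 3014 genes with 1 to 10 CPM, 14.1% of 6963 with 10 to 100 CPM, 9.89% of 2154 with 100 to 1000 CPM and 14.1% of 85 with 1000 CPM or more. In the group of 1 to 10 CPM, counting error alone gave a median coefficient of variation of 10.9%. The measured median there was 21.0%.

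**Figure D4:**
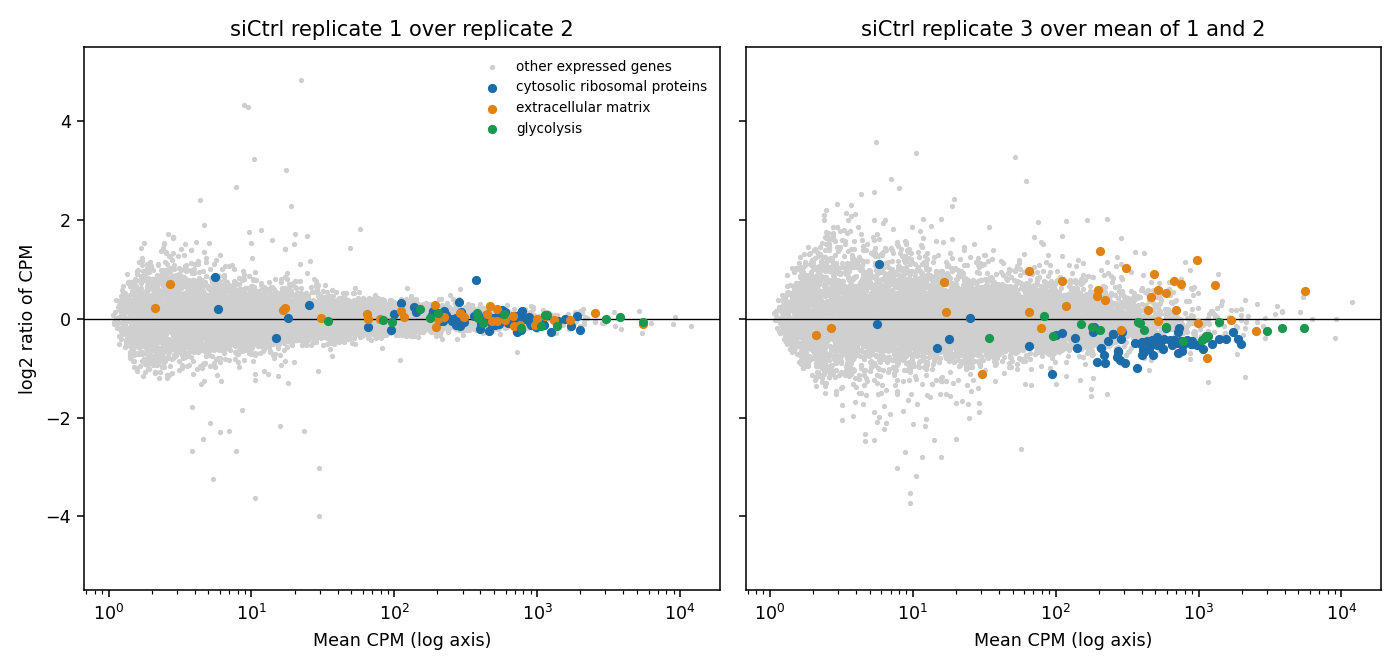
Log2 ratio of CPM between siCtrl libraries against mean CPM on a log axis for all expressed genes, for replicate 1 over replicate 2 at the left and for replicate 3 over the mean of the others at the right. Coloured points are members of 3 gene lists. At the right the ribosomal protein genes lie mostly below 0 and many matrix genes above it, while at the left all 3 lists lie about 0.

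Replicate 3 had less of the translation genes and more of the matrix genes. In replicate 3, 73 of 75 expressed cytosolic ribosomal protein genes were below the mean of replicates 1 and 2. Their median log2 ratio was -0.49 against -0.01 over all expressed genes. Of the 75, 32 varied (42.7%), 30 with replicate 3 lowest. Over all expressed genes 20.4% varied, and 7.92% varied with replicate 3 lowest. Together these genes took 4.48%, 4.58% and 3.26% of the counts. RPS12 had 569, 578 and 398 CPM and RPL8 varied with 21960, 16419 and 10817 counts. The ribosomal protein genes with the pyrimidine run shown above had a median of -0.51 (43 genes of at least 10 CPM) and those without it -0.46 (15 genes). Mitochondrial ribosomal protein genes were below in 70 of 76, with a median of -0.27, and the nuclear complex I subunits in 31 of 32. The 13 proteins of the mitochondrial genome lay the other way in 12 cases, with a median of 0.26.

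Several genes of cell cycle arrest, apoptosis and stress varied with replicate 3 lowest. In a fixed list of 20 such genes, which holds CDKN1A and BAX, 18 were expressed and 8 varied (44.4%). All 8 had replicate 3 lowest, a call made for 7.92% of all expressed genes. In replicate 3, 14 of the 18 lay below the mean of the others and 4 above it. CDKN1A was described above, and BAX, a pro-apoptotic gene, had 119, 102 and 68.4 CPM. The sestrin SESN2 had 42.4, 35.3 and 18.9 CPM and the antiproliferative gene BTG2 8.66, 5.56 and 1.91. In the matrix list 18 of 32 varied (56.25%), 15 with replicate 3 highest. Of all expressed genes 20.4% varied, and 10.4% varied with replicate 3 highest. Fibrillin FBN1 had 647, 708 and 1558 CPM and the basement membrane collagen COL4A1 233, 227 and 467. MMP14 and the proteoglycan BGN varied with replicate 3 lowest, at 1348, 1303 and 763 CPM and 37.7, 37.1 and 17.2 CPM. Of the growth factors 19 of 34 varied (55.9%, against 20.4% of all expressed genes), 9 with replicate 3 highest and 9 with it lowest.

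**Figure D5:**
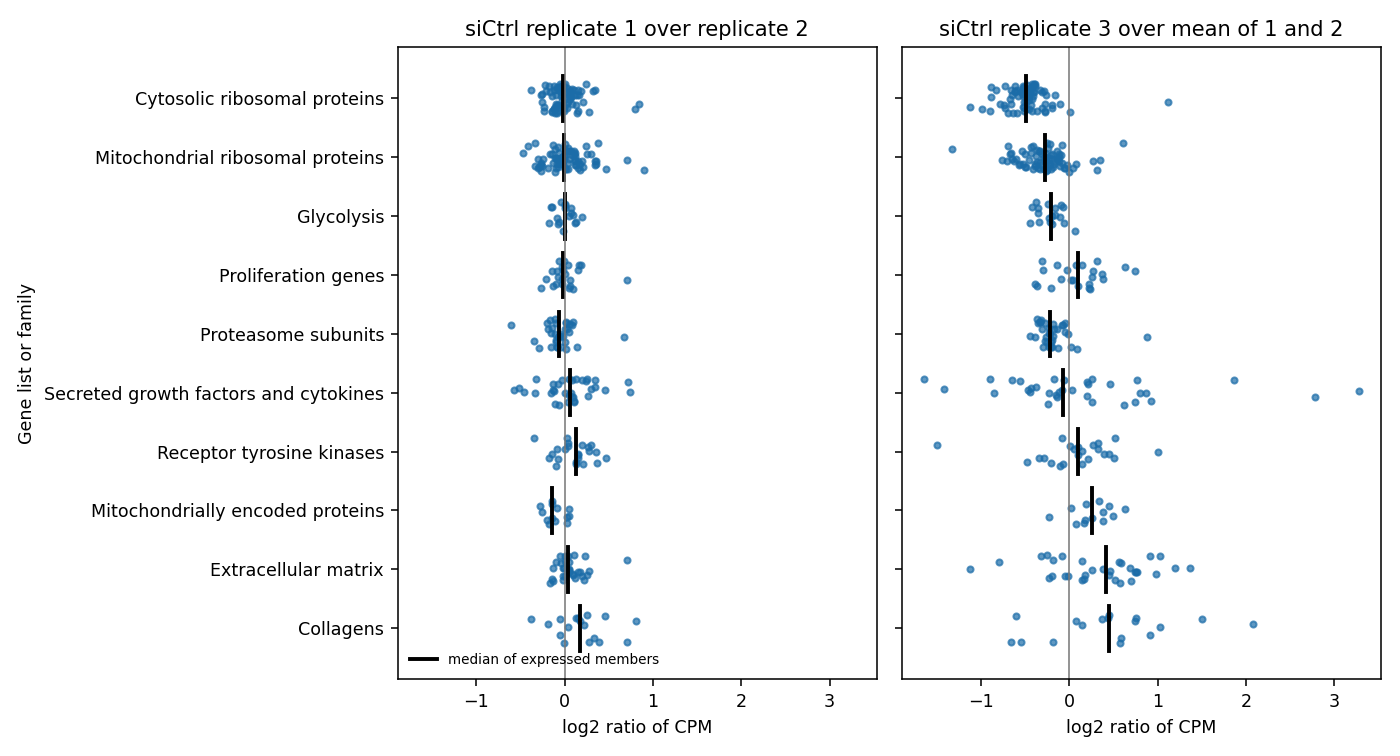
Log2 ratio of CPM for the expressed members of 10 gene lists and families, for replicate 1 over replicate 2 at the left and replicate 3 over the mean of the others at the right, with 1 point per gene and a bar at the median. The cytosolic ribosomal protein median at the right is -0.49 and the matrix median 0.42.

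Among genes with a symbol, the secreted factors CXCL8 and IL11 had the largest ratios of replicate 3 to the mean of the others. CXCL8 (interleukin-8, a neutrophil chemokine) had 12.7, 13.8 and 129 CPM, and the cytokine IL11 had 21.7, 20.3 and 144, which are 9.75 and 6.88 times the mean of the other replicates. PRUNE2 stood at 5.42 times. TNFAIP3, an inhibitor of NF-κB signalling, had 6.05, 5.66 and 23.9 CPM, which is 4.09 times. PLEKHA7, MALAT1, MEG3 and EFEMP1 stood at 4.07, 4.04, 4.02 and 3.94 times. Below the others, replicate 3 had 0.162 times the level of CUTA, a gene of the MHC region. Replicates 1 and 2 also differed there (125, 35.3 and 12.9 CPM). For the pro-apoptotic gene BMF replicate 3 had 0.186 times the level (27.1, 28.1 and 5.12 CPM). It had 0.228 times that of CHAC1, a target of ATF4, and 0.248 times that of DHRS3. SDCCAG8 was at 0.222 times. Replicates 1 and 2 were near each other in CXCL8, IL11, TNFAIP3, BMF and DHRS3, and the difference was between replicate 3 and both.

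Transcript length and base composition moved with replicate 3. Among protein-coding genes of at least 10 CPM, the median log2 ratio of replicate 3 to the mean of the others was -0.20 in the 2225 genes with the shortest transcripts and 0.15 in the 2223 with the longest. By GC content it went from 0.06 in the 2226 genes of lowest GC to -0.13 in the 2224 of highest. The longest annotated transcripts of the 43 ribosomal protein genes with the run had a median of 2059 bases, against 4247.5 bases for other genes without it. Replicates 1 and 2 did not differ with length in this way, at -0.02 in both the shortest and the longest group, and differed with GC content from -0.07 to 0.10. The part of length, base composition and RNA quality in the list differences was not tested.

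Some regions were counted poorly. In the region of chromosome 6 that holds the major histocompatibility complex (MHC), 8 of 178 protein-coding genes were expressed (4.49%), against 479 of 845 on the rest of the chromosome (56.7%). TUBB, a main β-tubulin of dividing cells, lies there and had 19, 16 and 5 counts, while TUBB4B elsewhere had 1858 ± 172 TPM. ABCF1 had 242, 2 and 1 counts, TRIM27 1, 203 and 0, and CUTA 3006, 691 and 250. Of the 221 expressed identifiers without a position in the annotation used here, 49.8% varied. Genes with over 90% of their exon bases shared with a gene on the same strand were expressed in 4.56% of 285 cases, against 53.4% of 12981 genes with no such bases. A low value in these groups therefore does not show that a gene was silent.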

How the data were processed

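Reads of polyadenylated RNA from RPE-1 cells were trimmed (cutadapt 2.10), mapped to hg38 in HISAT2 with a reverse-strand setting, and assigned to genes in featureCounts. The values the authors deposited are raw counts. The annotation release and the strand setting of the counting step are not given in the sources used here, and the processing notes name mm10 beside hg38. Positions and exon lengths came from GENCODE release 44, which matched 56105 of 64252 identifiers and may differ from the annotation of the table. Promoter sequences came from RefSeq (GRCh38.p14).

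Only the 3 siCtrl columns were read, matched by name. Effective library sizes (TMM) and dispersions, for genes kept by a minimum count of 10 and a total of 15, came from edgeR 4.0.16 under R 4.3.3, with size factors of DESeq2 1.42.0 as an alternative. With 1 group there is no test between groups. Variation was called with a chi-square test (scipy 1.17.1) of each gene's counts against counting error, adjusted by Benjamini-Hochberg over the 12216 expressed genes, with a ratio of at least 1.5. Counts were also simulated for those genes with counting error only. In these the test recovered 96 of 100 genes changed 2-fold and 100 of 100 changed 3-fold, and called 3 unchanged genes. In the libraries themselves, 8689 of the 12216 genes (71.1%) went beyond counting error at any ratio. The simulation therefore does not show how the call behaves with such spread. Depth was 19260124 to 24099968 counts per library. Alternatives covered scaling, filters, thresholds, gene length and leaving out each library.

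Genes were named by rule: FAM53C, the line's markers, and the 20 nuclear protein-coding genes of highest TPM. For each list or family up to 4 leading members, defining members at or near 0 and varied members were eligible, and not all varied members are named. Also eligible were the genes with the most extreme ratios of replicate 3 to the mean of the others (10 each way). The same held for ratios between replicates 1 and 2 (5), and genes with no symbol are not named. Other list members with printed values, such as GUSB and SDHA, were chosen after their values were seen. RPE, an epimerase of the pentose phosphate pathway, was taken off the visual cycle list after its values were seen, since it is no member by function. A few genes are not reported here. Members and lists were chosen with earlier results of these data known.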

Additional observations from a re-analysis of the deposited data

How the results depend on the processing

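The number of expressed genes stayed within 1.5 times of 12216 under every alternative run: 12216 with library totals only and with DESeq2 size factors, 17039 at 1 count or more in each library, 12762 at 1 TPM, 13281 at 10 counts, and 12392 to 12434 with a library left out. The count of varied genes depended on the definition and on replicate 3. It was 2490, and 818 with a ratio of at least 2, 5651 with no filter on low counts (24110 genes tested), 2712 by the ratio alone, and 558 to 1892 with a library left out, the lowest without siCtrl replicate 3. The count also fell without replicate 1, to 1892, and without replicate 2, to 1815. The biological coefficient of variation was 19.1%, 25.7% with no filter, and 11.6% to 22.05% with a library left out, again lowest without replicate 3. The share of the 100 most abundant genes was 20.6%, 18.5% without the mitochondrial genome, and 20.5% to 20.6% with a library left out. At 10 counts in each library 320 of 528 list members were expressed instead of 306. Among 26 named genes the length of the longest transcript multiplied the TPM by 0.735 to 2.19, most for PAX6, and leaving out the mitochondrial genome by 1.19 to 1.21.

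No paired analysis was possible because 1 group was described and no result comes from a test between groups. Totals of 19260124 to 24099968 counts limit the precision below 10 CPM, where counting error gave a median coefficient of variation of 10.9%.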
